A study of Mus musculus with 5 samples.

Results

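The genes described here are 35 genes of fatty acid oxidation, ketone body metabolism and PPAR regulation, out of 55471 genes in the deposited tables. They were matched by gene symbol, and all 35 symbols were found. The mice were C57BL/6 males aged 11 weeks in which TNBS, a hapten that inflames the colon, had been used to induce colitis, and a piece of colon was taken for RNA sequencing 3 days later. Vehicle had been given to the mice of 2 libraries and propyzamide, a herbicide aimed at the microtubules of plants, to those of 3. Mice without TNBS were not analysed here, so both groups carry the colitis. Neither the segment of colon nor the dose is known from the sources used here. The comparison asks how the colon of propyzamide-treated mice differed from that of vehicle-treated mice.

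Fatty acids are activated to acyl-CoA, carried into mitochondria by the carnitine shuttle and shortened by repeated cycles of dehydrogenation, hydration, dehydrogenation and thiolysis. The electrons leave through the electron transfer flavoprotein, and in some tissues the acetyl-CoA made is turned into ketone bodies. PPAR alpha, PPAR delta and PPAR gamma are nuclear receptors that bind fatty acids and, paired with RXR, switch on many of these genes. In the colon, oxidation of butyrate from bacteria is a main fuel of the epithelium, and the mitochondrial enzymes of short acyl chains serve it.

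Estimated counts totalled 1573592 to 2706840 per library, and 1 count equalled 0.340 to 0.609 CPM, the count relative to the TMM-scaled library size. The libraries differed in more than the treatment. The 6 posterior Hox genes listed as markers of the hindgut summed to 224 and 279 CPM in vehicle and to 33.3, 30.3 and 18.3 CPM in propyzamide. Of these 5 lay lower in all propyzamide libraries, and 1, Hoxa13, lay higher, at 4.55 and 9.08 CPM against 10.2, 13.9 and 10.3 CPM. The 10 small-intestinal absorptive markers summed to 15.7 and 9.65 CPM against 305, 1105 and 774 CPM. Of these sums Reg3b, a secreted lectin, made up 0 and 0 CPM in vehicle and 26.2, 116 and 190 CPM in propyzamide. The 10 absorptive colonocyte markers summed to 2421 and 3848 against 8062, 11556 and 11462 CPM. Of the colonocyte markers 6 lay higher in all propyzamide libraries, 1 (Slc5a8) lay lower and 3 (Car4, Slc26a3 and Aqp8) overlapped. Car1 alone made up 2434, 2827 and 6098 CPM of their sums in propyzamide. Smooth muscle markers (10) summed to 504 and 3298 against 5660, 8313 and 9374 CPM, and adipocyte markers (8) to 15.7 and 22.7 against 49.96, 106 and 315 CPM. The 8 pan-epithelial markers overlapped between the groups, at 3572 and 4279 CPM in vehicle and 4163 to 5592 CPM in propyzamide. The segment of each piece is not given, so a difference in segment cannot be told apart from the treatment. Each group had a second index sequence of its own, so an index batch and the treatment cannot be told apart. Stray signal was read from receptor genes of smell and pheromone sensing, and it came to 1.21 and 0.764 counts per kilobase in vehicle and to 0.0794, 0.626 and 0.187 in propyzamide.

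Most of the 35 genes did not pass the test. Over the whole table the edgeR test (quasi-likelihood, Benjamini-Hochberg adjusted p under 0.05) called 229 of 12024 tested genes, or 1.90%, with 0.690% higher and 1.21% lower in propyzamide. Of the 35 members 32 passed the filter on low counts and were tested, and 1 of them was called: Pdk4, which was higher in propyzamide. The groups did not overlap in CPM for 12 of the 32, against 37.5% of all tested genes, the same share as among the members. Of these 12 genes 8 were higher in propyzamide (16.7% of all tested genes) and 4 lower (20.8% of all tested genes). At an unadjusted p under 0.05 there were 6 of the 32 members, against 18.2% of all tested genes. The median log2 fold change was 0.38 over the 32 members and -0.018 over all tested genes, with 24 members above 0 and 8 below. That median rested on the vehicle libraries, at 0.89 without vehicle replicate 1 and 0.15 without vehicle replicate 2. It was 0.042 to 0.045 with limma on log2 TPM, where the median of all genes was -0.39 and -0.47. Acadvl, Hadha, Acaa1a, Acaa1b, Etfdh, Ucp2 and Acsl5 overlap a protein-coding gene on the other strand, and the sources used here do not say whether the counting used strand, so their reads may be shared. In tissue pieces, fewer cells of a type and less RNA per cell cannot be told apart.

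**Figure D1:**
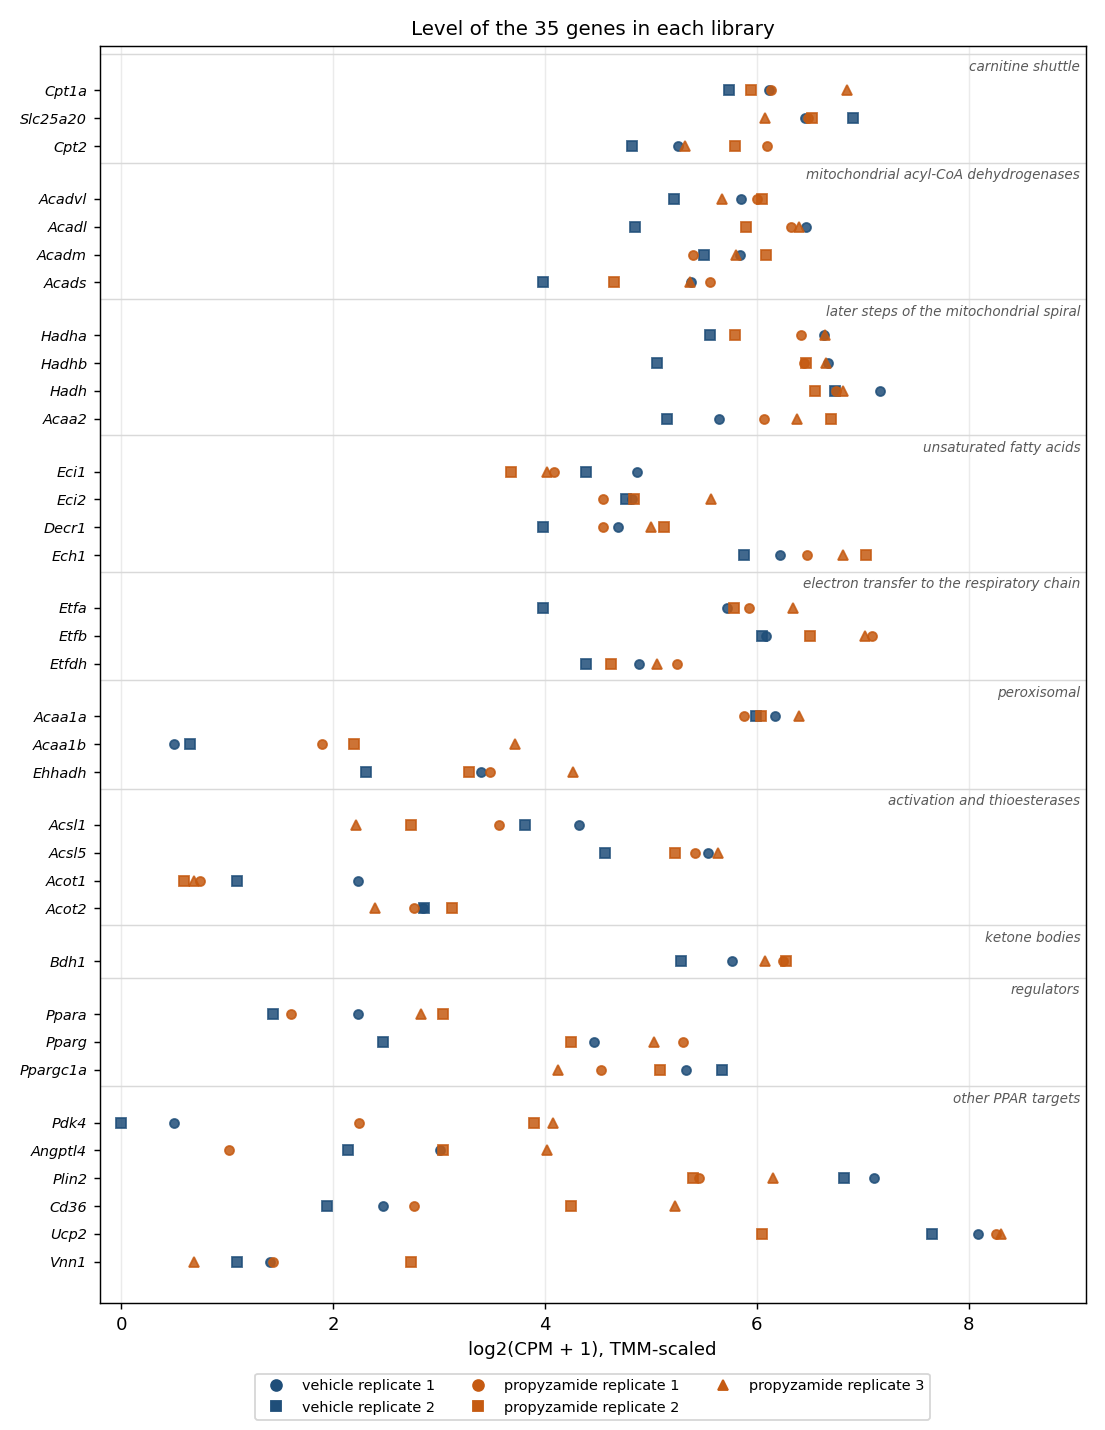
Level of each of the 35 genes in each library, as log2(CPM + 1) on a horizontal axis, with genes grouped by role. Points are single libraries, blue for vehicle and orange for propyzamide. Pdk4, Cd36 and Acaa2 lie to the right in propyzamide, Plin2 lies to the left, and for Acadl, Hadhb and Etfa vehicle replicate 2 lies to the left of all other libraries.

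**Figure D2:**
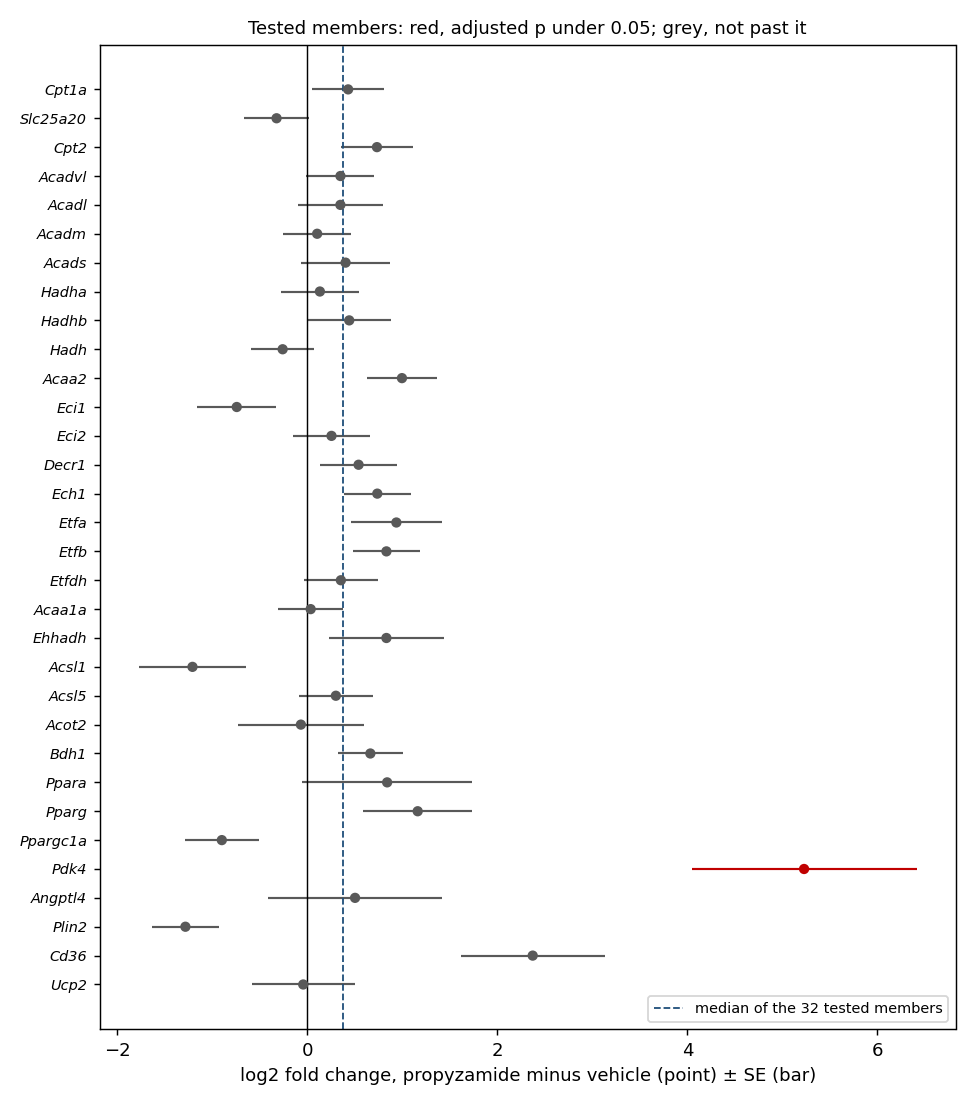
Log2 fold change of propyzamide minus vehicle for the 32 tested members, with bars of 1 SE, from the edgeR fit. Pdk4, in red, passed the adjusted threshold of 0.05, and the dashed line marks the members' median of 0.38.

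Pdk4 was the member with the largest difference. It encodes the mitochondrial kinase that blocks pyruvate dehydrogenase, which spares glucose when fat is burnt, and it is a classical PPAR target. Its counts were 1 and 0 in vehicle and 11, 27 and 26 in propyzamide, which gives 0.414 and 0 CPM against 3.74, 13.9 and 15.8 CPM. All 3 propyzamide libraries lay above both vehicle libraries, where a count of 0 in vehicle replicate 2 allows up to 1.70 CPM. The single vehicle count was below the stray signal expected for a gene of its length. The ratio of the summed counts, scaled for library size, was 41.0 (exact 95% counting interval from 7.09 to 1642), and the fitted log2 fold change was 5.23 ± 1.18 (SE; edgeR adjusted p = 0.0478). Leaving out vehicle replicate 1 or 2 ended the call (edgeR adjusted p = 0.295 and 0.241). It was also lost with a filter of 10 CPM in 2 samples (0.0723) and with background subtracted (0.0505), and the gene was not tested after the filter without propyzamide replicate 2 or 3. Counting intervals cover counting error only. Per length, Pdk4 ranked 34 of the 35 members, with a mean of 1.82 TPM, the length-corrected level, over all libraries.

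Pdk4 (ENSMUSG00000019577) lies on the minus strand at chr6:5483351-5496309 of GRCm38. Its upstream stretch is shown because it is the only member called. The 219 bases before its start, chr6:5496310-5496528 from RefSeq's GRCm38.p6 promoter table, read 5′ to 3′ on the minus strand, with capitals marking the CCAAT box on the other strand.
Pdk4 upstream: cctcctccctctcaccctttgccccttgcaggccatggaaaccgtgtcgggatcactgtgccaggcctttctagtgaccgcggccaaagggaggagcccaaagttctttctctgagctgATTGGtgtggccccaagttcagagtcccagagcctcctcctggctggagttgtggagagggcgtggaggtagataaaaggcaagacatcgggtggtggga
The direct repeat bound by PPAR with RXR was searched in windows of 250 bases before to 50 after each start, on both strands. The half-site AGGTCA repeated after 1 spacer base occurred in 0.0396% of 32851 windows, and the looser half-site AGGNCA repeated in the same way in 0.381%. RefSeq windows were found for 31 of the 35 members, and 0 of them held either form. At such shares a count of 0 is near the background, and sequence outside the windows was not searched. The CCAAT box, as CCAAT on either strand, occurred in 37.4% of all windows and in 18 of the members' 35 windows. These belonged to 17 of the 31 members, Pdk4 among them.

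The other PPAR targets pointed in different directions, and the 4 of them that were tested did not pass. Cd36, the fatty acid uptake receptor of fat cells, macrophages, capillaries and enterocytes, was at 4.55 and 2.84 CPM in vehicle and at 5.78, 18.0 and 36.5 CPM in propyzamide. The groups did not overlap, but propyzamide replicate 1 lay close to vehicle, and the log2 fold change of 2.37 ± 0.76 (SE) did not pass (edgeR adjusted p = 0.123). Cd36 passed without propyzamide replicate 1 (edgeR adjusted p = 0.0249) and when low counts were not filtered out (0.00739). The summed adipocyte markers followed the same order over the propyzamide libraries. So did those of macrophages (7 genes, 95.1 and 81.1 CPM in vehicle and 44.5, 154 and 291 CPM in propyzamide) and fibroblasts (6 genes, 421 and 294 against 312, 847 and 996 CPM). The sums of smooth muscle markers, given above, and striated muscle markers (5 genes, 10.3 and 25.0 against 19.7, 27.2 and 53.0 CPM) also followed it. Lyz2 made up 25.5, 107 and 181 CPM of the macrophage sums in propyzamide. C1qa and C1qc among the macrophage markers and Dcn and Col1a1 among the fibroblast markers did not follow the order. The other macrophage and fibroblast markers did, Cd68 with 3 counts in each propyzamide library. Smtn, Synm, Tagln, Lmod1 and Synpo2 among the smooth muscle markers and Cidec, Lipe, Plin1 and Lep among the adipocyte markers did not. Of the striated muscle markers only Ckm followed it. The sums of the small-intestinal absorptive and absorptive colonocyte markers, given above, did not follow it. The part of these cell types in the values of Cd36 was not tested. The adipocyte markers did not go one way. Of the 8, 4 lay higher in all propyzamide libraries, 2 (Lep and Plin1) lay lower and 2 overlapped, and Cfd alone made up 192 of the 315 CPM in propyzamide replicate 3. The counts of Adipoq, which fat cells secrete, were 1 and 3 against 3, 7 and 49 (vehicle against propyzamide). Those of Lep, the fat-cell hormone, were 6 and 3 against 0 in each propyzamide library.

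Plin2, which coats lipid droplets, was at 136 and 112 CPM in vehicle and at 42.8, 41.1 and 70.0 CPM in propyzamide. Both vehicle libraries lay above all 3 propyzamide libraries, at a mean of 124 ± 17.1 (SD, n = 2) against 51.3 ± 16.2 CPM (SD, n = 3). The log2 fold change was -1.28 ± 0.36 (SE) and missed the threshold (edgeR adjusted p = 0.0783). Its direction held in all 16 alternatives, with values from -1.75 to -1.16, and 1 of them passed the threshold. Plin2 therefore stood opposite to Pdk4 and Cd36, although all 3 are counted among PPAR targets.

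Angptl4, a secreted inhibitor of lipoprotein lipase, overlapped between the groups, at 7.03 and 3.40 CPM in vehicle and 1.02, 7.19 and 15.2 CPM in propyzamide (log2 fold change 0.50 ± 0.91, SE). Ucp2, an inner-membrane carrier, was the most abundant gene of this role per length, at 353 and 113 TPM in vehicle and 181, 20.6 and 126 TPM in propyzamide. In CPM it was at 270.5 and 199.7 against 305, 65.2 and 314, so the spread within propyzamide exceeded the difference between the groups. Propyzamide replicate 2 stood far below the other libraries for Ucp2, and the log2 fold change was -0.043 with all libraries and 0.39 without that one. Vnn1, a pantetheinase and PPAR alpha target, had 6 counts in vehicle and 17 in propyzamide and was not tested, with 11 of the 17 counts in propyzamide replicate 2.

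The 3 regulators among the members did not pass. Ppara, the receptor that drives oxidation in liver, was near the depth limit at 12 counts in vehicle and 30 in propyzamide, with a log2 fold change of 0.84 ± 0.90 (SE). Pparg, the receptor of fat cells that colon epithelium also expresses, was the most abundant regulator per length, at 19.1 and 17.7 TPM in vehicle and 42.0, 8.89 and 16.2 TPM in propyzamide. In CPM it was at 21.1 and 4.54 against 38.4, 18.0 and 31.7, overlapping through vehicle replicate 1 (log2 fold change 1.16 ± 0.57, SE; edgeR adjusted p = 0.312). In vehicle replicate 2 a transcript of 213 bases with 2 estimated counts made up 12.4 of the 17.7 TPM. In propyzamide replicate 1 the same transcript, with 3.33 estimated counts, made up 18.35 of the 42.0 TPM.

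Ppargc1a, the coactivator PGC-1 alpha that raises mitochondrial gene expression, was lower in propyzamide without overlap. It was at 39.3 and 49.9 CPM in vehicle and at 22.1, 32.9 and 16.4 CPM in propyzamide (log2 fold change -0.90 ± 0.39, SE; edgeR adjusted p = 0.242). RSEM divided these reads unevenly among transcripts. The transcript of 3041 bases had 41.8 and 26.5 estimated counts in vehicle and 2.19, 0 and 0 in propyzamide, whereas that of 6464 bases had 39.1 and 37.6 against 36.9, 62.8 and 24.0. The shorter of these transcripts was lower in every propyzamide library and the longer overlapped, a description with no test.

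The enzymes of mitochondrial oxidation were measured more deeply. The 18 genes of the carnitine shuttle, the acyl-CoA dehydrogenases, the later steps, the handling of unsaturated chains and electron transfer summed to 1123 and 758 CPM in vehicle and to 1178, 1127 and 1285 CPM in propyzamide. Of the 18, 0 passed the adjusted threshold, and 15 had a log2 fold change above 0 (49.1% of all tested genes did). The count was 12 with limma on either log2 TPM scale and 14 with upper-quartile scaling. The 49.1% belongs to the TMM-scaled edgeR fit of all libraries and is no background for those counts. The median of all genes was -0.39 on log2(TPM + 1), -0.47 on log2(TPM + 0.1) and -0.14 with upper-quartile scaling. Without vehicle replicate 2 the count above 0 was 10 of 18, and the median of the 18 went from 0.38 to 0.15.

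The vehicle libraries differed from each other in these genes. Among the 32 tested members 29 were higher in vehicle replicate 1 than in vehicle replicate 2, against 49.4% of all tested genes, and 11 were at least 2 times higher, against 11.2%. The exceptions were Slc25a20, Acot2 and Ppargc1a. The 2 vehicle libraries also differed in smooth muscle markers, given above, and in goblet markers, which summed to 9248 and 3171 CPM. The part of these cell types in the members' spread was not tested.

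**Figure D3:**
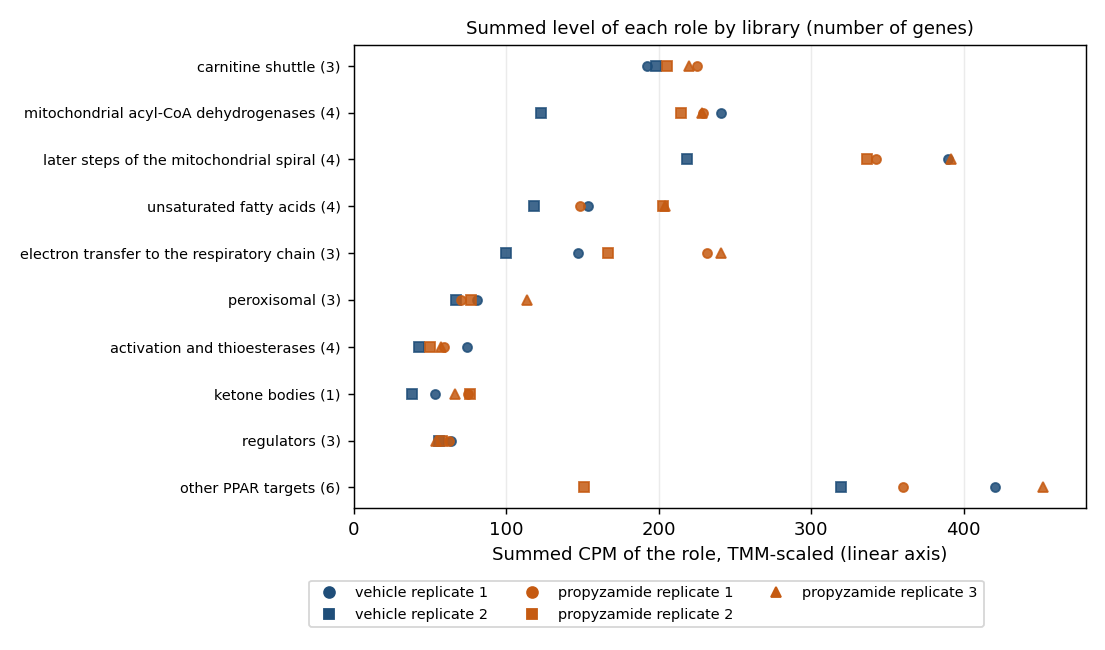
Summed CPM of each role in each library on a linear axis, with the number of genes in parentheses. Vehicle replicate 1 sits above the propyzamide libraries for the acyl-CoA dehydrogenases and among them for the later steps of the spiral, and vehicle replicate 2 sits below them in both. Electron transfer is the role of mitochondrial oxidation with the widest gap between the groups.

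In the carnitine shuttle, Cpt1a loads fatty acids onto carnitine at the outer membrane and is the controlled step of entry. It was at 68.2 and 52.2 CPM in vehicle and 69.3, 60.6 and 114 CPM in propyzamide, overlapping between the groups. Slc25a20, the translocase that carries acylcarnitine across the inner membrane, was the most abundant shuttle gene per length, at 89.4 and 55.4 TPM against 55.9, 43.2 and 30.0 TPM. Cpt2, which returns the chain to CoA inside, was higher in every propyzamide library, at 67.3, 54.4 and 39.0 CPM against 37.2 and 27.2 CPM. Its log2 fold change of 0.73 ± 0.38 (SE) did not pass (edgeR adjusted p = 0.336).

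The 4 acyl-CoA dehydrogenases, which open each cycle on chains of falling length, all overlapped between the groups. The log2 fold changes of Acadvl, Acadl, Acadm and Acads lay between 0.10 and 0.40, each within 1 SE of 0. Acadvl, the very-long-chain enzyme and the most abundant of the 4 per length, was at 59.8 and 19.1 TPM in vehicle and 70.8, 76.6 and 64.7 TPM in propyzamide. On the CPM scale it was at 56.7 and 36.3 against 62.9, 65.2 and 49.9. Acadl, the long-chain enzyme, went from 87.3 CPM in vehicle replicate 1 to 27.8 in vehicle replicate 2, a span that held all 3 propyzamide values of 79.2, 58.5 and 83.4 CPM. The signs of Acadl and Acads turned without vehicle replicate 2, and that of Acadm without that library, without propyzamide replicate 2, with upper-quartile scaling, with a filter of 10 CPM and on log2 TPM.

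Hadha and Hadhb encode the subunits of the trifunctional protein, which carries out the later steps on long chains. Hadha was at 98.0 and 46.0 CPM in vehicle and 84.6, 54.4 and 98.6 CPM in propyzamide. Hadhb was at 101 and 32.3 CPM against 86.0, 87.3 and 99.8 CPM. Hadha stood to Hadhb in CPM at ratios of 0.971 and 1.42 in vehicle and of 0.984, 0.624 and 0.988 in propyzamide, close to 1 in 3 libraries and apart in replicate 2 of each group.

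The 2 genes lie head to head on chromosome 5 of GRCm38, Hadha on the minus strand at chr5:30118304-30155162 and Hadhb on the plus strand at chr5:30155248-30184593. The 85 bases between them, chr5:30155163-30155247, are shown because subunits of 1 complex share this stretch as upstream sequence. They are read on the plus strand, with capitals marking the GC box GGGCGG.
Hadha-Hadhb gap: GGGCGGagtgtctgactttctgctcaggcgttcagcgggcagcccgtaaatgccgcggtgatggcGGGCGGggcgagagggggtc
The GC box occurred on either strand in 35.7% of all windows and in 24 of the members' 35 windows, which belonged to 23 of the 31 members. The 85 bases held 2 GC boxes, 0 CCAAT boxes and 0 matches to the loose PPAR repeat.

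Acaa2, the thiolase that releases acetyl-CoA in mitochondria, showed the largest difference among the 18. It was at 48.8 and 34.6 CPM in vehicle and at 65.9, 103 and 82.2 CPM in propyzamide, and per length it was the most abundant gene of its role at 60.1 and 37.5 against 105, 143 and 108 TPM. Every propyzamide library lay above both vehicle libraries, with a log2 fold change of 0.996 ± 0.37 (SE) that did not pass (edgeR adjusted p = 0.172). Hadh, the dehydrogenase of shorter chains, stood at -0.26 ± 0.33 (log2, SE) with overlapping groups.

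Unsaturated chains need isomerases and a reductase before the cycle can go on. Ech1, an isomerase of dienes found in mitochondria and peroxisomes, was the most abundant of them per length, at 163 and 60.9 TPM in vehicle and 127, 141 and 109 TPM in propyzamide. In CPM, where library composition is scaled, it was at 73.2 and 57.9 against 87.7, 129 and 111, higher in each propyzamide library (log2 fold change 0.74 ± 0.35, SE; edgeR adjusted p = 0.293). Eci1, the mitochondrial enoyl-CoA isomerase, went the other way, at 28.1 and 19.9 CPM in vehicle and 16.0, 11.8 and 15.2 CPM in propyzamide (log2 fold change -0.74 ± 0.42, SE; edgeR adjusted p = 0.378). Eci2 and Decr1 overlapped, at 0.25 ± 0.41 and 0.54 ± 0.41 (log2, SE).

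In electron transfer 2 of 3 genes did not overlap between the groups. Of all tested genes 37.5% did not overlap, and 3 genes are too few to set against that share. Etfb, the beta subunit of the electron transfer flavoprotein and the most abundant of the 35 genes per length, was at 161 and 92.3 TPM in vehicle and 289, 156 and 217 TPM in propyzamide. In CPM it was at 67.0 and 65.3 against 135, 89.3 and 129, with a log2 fold change of 0.83 ± 0.35 (SE; edgeR adjusted p = 0.230). Etfa, the alpha subunit, was at 51.7 and 14.8 CPM against 59.8, 53.9 and 79.8 CPM, so vehicle replicate 1 lay just under the lowest propyzamide library. Its log2 fold change of 0.94 ± 0.48 (SE) went to 2.10 when vehicle replicate 1 was left out and to 0.37 when vehicle replicate 2 was. Etfdh, which passes the electrons to ubiquinone, overlapped at 0.35 ± 0.39 (log2, SE).

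Peroxisomes shorten the longest chains before mitochondria take over. Acaa1a, the peroxisomal thiolase, was the most abundant gene of this role and differed little, at 71.1 and 62.4 CPM in vehicle and 57.8, 64.7 and 83.4 CPM in propyzamide (log2 fold change 0.035 ± 0.34, SE). Its near-identical copy Acaa1b had 2 counts in vehicle and 35 in propyzamide, and was not tested. The scaled ratio was 11.2, and its exact 95% counting interval ran from 2.88 to 96.1. RSEM divides reads between such copies, so the assignment is uncertain. The copies together were at 71.5 and 63.0 CPM against 60.5, 68.3 and 95.6 CPM (log2 fold change 0.15; edgeR adjusted p = 0.874). Ehhadh, the peroxisomal bifunctional enzyme, was at 9.51 and 3.97 CPM against 10.2, 8.73 and 18.3 CPM.

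Among the enzymes that activate fatty acids or release them from CoA, Acsl1 and Acsl5, acyl-CoA synthetases, had log2 fold changes of opposite sign, except on log2 TPM and without vehicle replicate 2, where both were below 0. Acsl1 was at 19.0 and 13.1 CPM in vehicle and at 10.9, 5.65 and 3.65 CPM in propyzamide, without overlap (log2 fold change -1.21 ± 0.57, SE; edgeR adjusted p = 0.282). Of its transcripts, that of 3897 bases held most reads, with 32.6 and 19.0 estimated counts in vehicle and 29.9, 10 and 2 in propyzamide. Acsl5, the intestinal synthetase and the most abundant of this role per length, was at 41.6 and 4.44 TPM against 16.2, 9.92 and 12.8 TPM. In CPM it was at 45.5 and 22.7 against 41.8, 36.4 and 48.7, overlapping between the groups.

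The thioesterases Acot1 and Acot2 belong to a cluster of related genes on chromosome 12, whose sequence identity was not computed here. Acot1 had 11 counts in vehicle and 4 in propyzamide and was not tested. Acot2 overlapped at -0.068 ± 0.66 (log2, SE). The 6 genes Acot1 to Acot6 together were at 19.4 and 20.4 CPM in vehicle and 16.3, 26.2 and 20.1 CPM in propyzamide, within the spread of the libraries.

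Bdh1, the dehydrogenase of beta-hydroxybutyrate, interconverts the ketone bodies. Bdh1 was at 53.4 and 38.0 CPM in vehicle and at 74.8, 76.5 and 66.4 CPM in propyzamide. All propyzamide libraries lay above vehicle, with a log2 fold change of 0.66 ± 0.34 (SE) that did not pass (edgeR adjusted p = 0.336).

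Around the 35 genes, 79 other genes of the same pathways are given here, of which 78 were found and 57 tested. Of these 5 rose and 1 fell, beside 0.690% and 1.21% of all tested genes. In the peroxisome, Abcd3, a transporter of acyl-CoA across its membrane, was at 50.04 and 44.3 CPM in vehicle and rose to 132, 141 and 152 CPM in propyzamide (log2 fold change 1.58 ± 0.35, SE; edgeR adjusted p = 0.0417). Its call was lost in 8 of 16 alternatives, at edgeR adjusted p of 0.293 and 0.218 without vehicle replicates 1 and 2, and of 0.0522 and 0.109 without propyzamide replicates 2 and 3.

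Of the other listed PPAR targets, Fabp2, the fatty acid binding protein of enterocytes, rose by 6.56 ± 0.74 on the log2 scale (SE) and held in all 16 alternatives. Me1, the malic enzyme that makes NADPH, rose from vehicle values of 3.72 and 2.27 CPM to propyzamide values of 19.4, 25.2 and 31.7 (edgeR adjusted p = 0.0210). Mgll, which splits monoacylglycerol, rose from 7.03 and 23.8 CPM in vehicle to 64.2, 102 and 94.97 CPM in propyzamide (edgeR adjusted p = 0.0323), and Cidec, a lipid droplet protein, rose by 4.17 ± 0.81 (log2, SE; edgeR adjusted p = 0.0277). Fads2, a fatty acid desaturase, fell from 121 and 97.6 CPM in vehicle to 40.1, 20.5 and 11.0 CPM in propyzamide (edgeR adjusted p = 0.0364). The calls for Me1, Fads2 and Cidec were lost without either vehicle library, at edgeR adjusted p of 0.153, 0.293 and 0.0599 without replicate 1 and 0.145, 0.147 and 0.141 without replicate 2. Leaving out vehicle replicate 1 ended that for Mgll (edgeR adjusted p = 0.293). None of the 4 passed without propyzamide replicate 3 (edgeR adjusted p from 0.0633 to 0.0897). Cidec, Mgll and Fads2 did not pass without propyzamide replicate 2 (edgeR adjusted p from 0.0505 to 0.0695). Fabp4, the fat-cell binding protein, was at 2.90 and 9.08 against 15.0, 51.8 and 60.9 CPM and lay at the threshold (edgeR adjusted p = 0.0508).

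Of the 10 PPAR partners tested 0 passed, beside 1.90% of all tested genes, so that a count of 0 is near the background. Ppard, the most widely expressed PPAR, overlapped at 18.2 and 35.7 CPM in vehicle and 26.2, 7.70 and 26.2 CPM in propyzamide. The same holds for the 14 other mitochondrial genes tested, of which 0 passed. Fabp2 is listed among the small-intestinal absorptive markers and Cidec and Fabp4 among the adipocyte markers, lists whose sums were higher in all 3 propyzamide libraries than in vehicle. These sums include the genes themselves, and Fabp2 made up 228, 837 and 453 of the 305, 1105 and 774 CPM of its list in propyzamide. Of the 10 small-intestinal markers 5, the lectin Reg3b among them, lay higher in all propyzamide libraries and 5, Mttp, Apoa4, Fabp6, Fabp1 and Sis, overlapped. How much of the rise of Pdk4 or the other genes goes with these cell types was not tested.

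**Figure D4:**
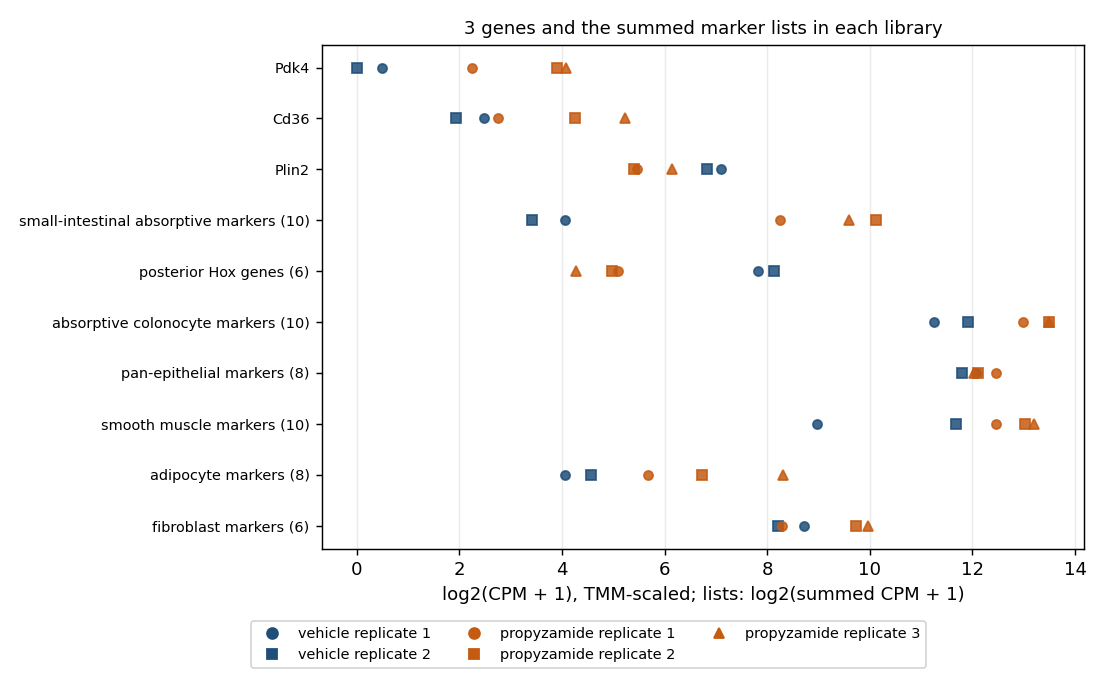
Level of Pdk4, Cd36 and Plin2 and summed level of 7 marker lists in each library, on a log2 axis, with the number of genes in each list in parentheses. The sums of the small-intestinal absorptive, absorptive colonocyte, smooth muscle and adipocyte markers lie higher in all propyzamide libraries. That of the posterior Hox genes lies lower, while those of the pan-epithelial and fibroblast markers overlap.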

How the data were processed

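For each library the authors deposited a transcript table from RSEM, per the file headers, in which estimated counts and TPM are given for 142647 transcripts; the FPKM and isoform percent columns were not used. RSEM, kallisto and the build GRCm38 are named in the submitters' processing notes, and the sources used here do not give their settings. Libraries were made by SMART-Seq2, which amplifies full-length cDNA without molecular identifiers, per the labels' protocols. The 5 libraries are labelled as single mice, so p-values rest on the spread between them.

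Counts were summed to 55471 genes and rounded. Symbols were found for 99.6% of the identifiers in GENCODE M21. Genes were tested with edgeR 4.0.16 in R 4.3.3 (filterByExpr with a minimum count of 10, TMM, quasi-likelihood, Benjamini-Hochberg, threshold 0.05). SEs came from the F statistic, and intervals of count ratios are exact binomial (95%). All 35 members are accounted for. Those past the threshold, those whose groups do not overlap and the most abundant of each role are given by library, and other pathway genes where they passed, beside Ppard and Fabp4. Some pathway genes are not reported here and are left out of the list counts. The members, lists and alternatives were chosen with earlier results of these data known. Alternatives were other scalings and filters, DESeq2 1.42.0, and limma 3.58.1 on log2(TPM + 1) and log2(TPM + 0.1). Others were a replicate block, each library left out, removal of rRNA-like and mitochondrial genes and subtraction of background. The last summed copies, Acaa1a with Acaa1b and Acot1 to Acot6. The background was the count per kilobase over 1974 receptor genes. The fit was tested on simulated counts. No pair of libraries was a duplicate (chi-square per degree of freedom 16.0 to 48.1). A genome sequence was not used here, and promoter sequences are RefSeq's for GRCm38.p6.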

Additional observations from a re-analysis of the deposited data

How the results depend on the processing

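The number of genes called over the whole table was 229 and the number of members called was 1. These were 148 and 0 with a filter of 10 CPM in 2 samples, 141 and 0 with background subtracted, and 1327 and 2 without a filter on low counts. Genes called were 401 with DESeq2, 490 with limma on log2(TPM + 1) and 362 with rRNA-like and mitochondrial genes removed, with 1 member called in each. Leaving out 1 library at a time gave 36 to 499 genes and 0 to 2 members. With a vehicle library left out, the other is assumed to vary as the propyzamide libraries do.

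With the replicate block 639 genes and 2 members were called. The members were Pdk4 and Plin2 (log2 fold change -1.56; edgeR adjusted p = 0.0168). Same-numbered libraries correlated in their deviations from the group means at 0.17 and 0.15. With 2 pairs and no shared litter or day in the labels, they share only a number.

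Of the 32 tested members 18 kept their direction in the alternatives run. On log2(TPM + 1) the median of all genes was -0.39. There the sign turned for Cpt1a (-0.084), Acadm (-0.57), Hadha (-0.23), Acaa1a (-0.19), Acsl5 (-0.15) and Ppara (-0.20). On log2(TPM + 0.1) the median of all genes was -0.47. There the sign turned for Cpt1a (-0.083), Acadm (-0.59), Hadha (-0.23), Acaa1a (-0.19), Acsl5 (-0.10), Ppara (-0.12), Pparg (-0.010) and Angptl4 (-0.12). It turned for Acadm (-0.027) and Acaa1a (-0.093) with upper-quartile scaling, and for Acadm (-0.00034) and Acaa1a (-0.070) at 10 CPM. With the replicate block it turned for Eci2 (-0.10), Acaa1a (-0.13), Acot2 (0.093) and Angptl4 (-0.70). It turned for Acaa1a (-0.068) and Acot2 (0.088) with background subtracted, for Acot2 (0.056) and Ucp2 (0.094) without a filter, and for Acot2 (0.061) with copies summed. Leaving out 1 library gave -0.19 to 1.38 for Acadl, -0.087 to 0.27 for Acadm, -0.076 to 1.30 for Acads, -0.25 to 0.76 for Hadha and -0.094 to 1.47 for Hadhb. It gave -0.097 to 0.42 for Eci2, -0.13 to 0.11 for Acaa1a, -0.050 to 0.88 for Acsl5, -0.30 to 0.10 for Acot2, -0.43 to 1.12 for Angptl4 and -0.36 to 0.39 for Ucp2. Outside the members it gave -0.85 to 0.20 for Ppard. The cause was not tested. Depth limits Pdk4, Acaa1b, Acot1, Vnn1 and Ppara, whose vehicle groups held 12 counts or fewer.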
